A study of Mus musculus with 12 samples.

Results

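RNA sequencing of cultured mouse spermatogonial stem cells (mSSC) was compared between cells kept on laminin with vehicle and untreated cells of the same kind. The comparison holds 4 of the 12 libraries of the series, 2 per group, chosen by their labels. All 4 come from wild type male mice of the DBA/C57 F1 background, from testis taken at 5 to 7 days of age. The vehicle cells were plated overnight on dishes coated with laminin and then received the solvent control for 24 h; the labels give no culture surface, medium or time for the untreated cells. The other 8 libraries, used here only for reference, are cells given retinoic acid (RA) or retinoic acid with cycloheximide (RA and CHX) in the vehicle experiment, and induced differentiating spermatogonia (idSG) and induced spermatocytes (iSC) sorted from cultures on Sertoli cells in the experiment of the untreated cells. The vehicle libraries belong to the treatment experiment and the untreated libraries to the induction experiment, so culture, experiment and sequencing batch are confounded and their parts in any difference cannot be told apart. Nothing in the labels says whether replicates were separate cultures or animals, so each p-value reflects the variation among these libraries alone, which may be technical.

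Spermatogonial stem cells sit on the basement membrane of the seminiferous tubule, which they bind through laminin-binding integrins such as ITGA6 with ITGB1. In the testis, GDNF from somatic cells signals through the receptor RET and its co-receptor GFRA1, and FGF signalling acts beside it, to maintain a self-renewal programme that includes ETV5, BCL6B, LHX1 and ID4. Retinoic acid turns such cells toward differentiation, which is marked by KIT and STRA8. Laminin-coated dishes are used to keep these cells attached without a layer of feeder cells.

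Of 22549 gene symbols, 721 small-RNA symbols were left out and 12142 genes reached a mean of 1 FPKM (sequenced fragments per kilobase of transcript, relative to the mapped total of the library) over the 4 libraries after scaling. Levels below are these scaled FPKM, and changes are differences of log2(FPKM + 1), vehicle minus untreated, with their standard error. A gene is said to have risen or fallen where limma's moderated test over all 12142 genes gave an adjusted p under 0.05. By that test 4667 genes (38.4%) differed, of which 2217 (18.3% of those tested) were higher and 2450 (20.2%) were lower in vehicle. Most of these differences were small. The median absolute log2 change of the genes called was 0.44, and 231 genes rose and 123 fell by at least 2-fold. An exact permutation test of a single gene with 2 libraries against 2 cannot go below p = 0.333.

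The number of calls rested on how close the vehicle libraries lay to each other. Across genes, Pearson's r of the log2 levels was 0.997 between the vehicle replicates and 0.985 between the untreated replicates, and 6 and 209 genes lay at least 2-fold apart between replicates. Of those 209 genes, 181 were higher in untreated replicate 2 and 28 in replicate 1. When a vehicle library was left out, so that the spread came from the untreated pair alone, 6 genes (without replicate 1) or 5 (without replicate 2) were called. Of the called genes named here, Amd1 and Tgoln2 kept their call in both of those fits and the others lost it in both. Without untreated replicate 1 or 2 the count was 7868 or 7019, with the spread taken from the vehicle pair alone. A fit on all 12 libraries, in which the 6 groups share one estimate of the spread, called 3114 genes, 2920 of them among the 4667, and 33 of the genes named here lost their call in it. Small-RNA symbols took 6.55% and 9.75% of the summed FPKM in vehicle and 1.22% and 0.791% in untreated cells. Among genes at low levels, FPKM values of 2 libraries of the same group fell on a common step for 36.8% (vehicle) and 59.3% (untreated) of genes within 0.02 on the log2 scale. Between groups that share was 6.24% to 6.59%, so relative read depth could not be recovered across the experiments. Each share is the highest over many trial ratios, so it can lie above the 4% that even spacing gives at a ratio fixed beforehand. The FPKM of the experiments thus share no visible step, and a difference in how they were quantified cannot be told apart from culture or batch either, which bears on every value set across them.

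**Figure D1:**
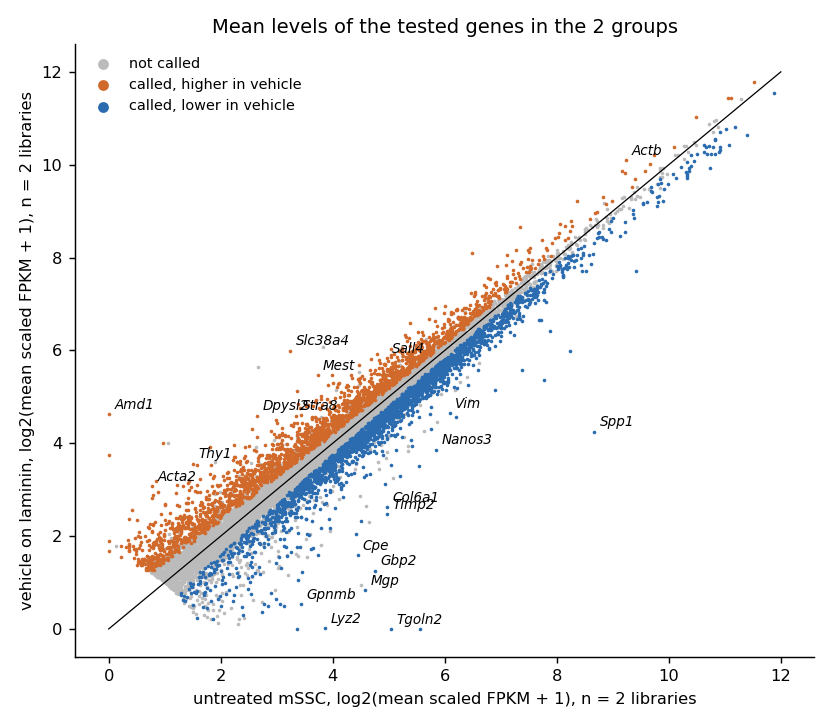
Mean level of each of the 12142 tested genes in untreated mSSC (horizontal axis) and in vehicle cells on laminin (vertical axis), as log2(mean scaled FPKM + 1) of 2 libraries each. Points above the line are higher in vehicle; Slc38a4, Thy1 and Actb lie above it and Spp1, Mgp, Gbp2 and Nanos3 below it.

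The genes that rose most, among those with a mean of at least 5 FPKM, included an amino acid transporter and a stem cell surface antigen. Slc38a4, which encodes a neutral amino acid transporter, was at 61.9 and 63.2 against 10.3 and 6.54 FPKM, a log2 change of 2.78 ± 0.20 (SE, n = 2 libraries per group, limma adjusted p = 0.0049). Thy1, a surface antigen used to enrich spermatogonial stem cells and also carried by fibroblasts, was at 11.4 and 10.2 against 1.57 and 2.09 FPKM, a log2 change of 2.06 ± 0.13 (adjusted p = 0.00457). In each case the vehicle libraries lay well above both untreated ones. Dpysl2, a regulator of microtubule assembly, was at 23.2 and 23.1 against 5.42 and 5.13 FPKM, and Clstn3, a calsyntenin of the cell surface, at 9.39 and 11.6 against 2.29 and 1.68 FPKM. Hist1h2ah, a replication-dependent H2A histone, was at 19.9 and 8.21 against 2.49 and 2.55 FPKM; it is a member of a family of near-identical copies, so its level is uncertain.

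The genes that fell most included secreted proteins of matrix and mineralized tissue, lysosomal proteins and an interferon-induced GTPase. Spp1, which encodes the secreted phosphoprotein osteopontin, was at 14.6 and 21.5 FPKM in vehicle and 191 and 622 in untreated cells, a log2 change of −4.21 ± 0.57 (adjusted p = 0.00849). Mgp, matrix Gla protein, was at 0.604 and 0.953 against 19.5 and 26.04 FPKM (log2 change −3.73 ± 0.18, adjusted p = 0.00457). Lyz2, the lysozyme of macrophages, was at 0.029 and listed at 0 against 7.53 and 19.7 FPKM (log2 change −3.71 ± 0.42, adjusted p = 0.00655). The groups did not overlap in any of them, but for Spp1 and Lyz2 the untreated libraries themselves lay more than 2-fold apart, with replicate 2 the higher. Gpnmb, a glycoprotein of lysosomes and melanosomes, stood at 0.468 and 0.424 against 7.43 and 12.1 FPKM. Cpe, carboxypeptidase E, was at 2.11 and 1.93 against 11.1 and 30.4 FPKM, and Timp2, an inhibitor of matrix metalloproteinases, at 4.67 and 4.39 against 14.1 and 46.6 FPKM. Without untreated replicate 2 the log2 changes were −3.36 for Spp1, −3.07 for Lyz2, −2.002 for Cpe and −1.45 for Timp2. Of all 123 genes that fell by at least 2-fold, 108 were higher in untreated replicate 2 than in replicate 1; 42 were at least 2-fold higher there and 0 were at least 2-fold higher in replicate 1.

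A further 4 genes were listed under 0.01 FPKM in both libraries of one group and at 5 or more in both of the other, and no fold is given for them. Tgoln2, a protein of the trans-Golgi network, was listed at 0 in both vehicle libraries and at 29.4 and 34.3 FPKM in untreated cells. It was also at 0 in all 4 RA and RA with CHX libraries and between 21.1 and 33.3 FPKM in the 4 induced libraries. Gm4535, an unnamed gene model, followed the same split, with 26.3 and 66.2 FPKM in untreated cells (all 12 libraries scaled together). Amd1, the decarboxylase that supplies polyamine synthesis, was at 30.1 and 17.3 FPKM in vehicle and about 0.002 in both untreated libraries, and Rplp2-ps1, a ribosomal protein pseudogene, at 13.1 and 11.6 FPKM in vehicle and under 0.001 in untreated cells. For Tgoln2 and Gm4535, the 6 libraries of the treatment experiment thus lay under 0.01 FPKM and the 6 of the induction experiment above them, whereas Amd1 was at 7.67 and 13.7 FPKM in iSC. Whether such zeros reflect the quantification of one experiment was not tested.

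Receptors for laminin gave no common direction. Of 7 tested, 2 rose, 1 fell and 4 were not called, with a median log2 change of −0.14 against −0.02 over all tested genes. Itga6, the laminin-binding integrin chain used to enrich stem cells, fell from 41.2 and 38.3 FPKM in untreated cells to 31.8 and 31.5 in vehicle, a log2 change of −0.32 ± 0.06 (adjusted p = 0.0157). Its partner Itgb1 was at 82.5 and 74.7 in vehicle against 88.9 and 90.3 FPKM (log2 change −0.19 ± 0.06, adjusted p = 0.0648) and was not called. Itga3, another laminin-binding chain, rose from 12.4 and 10.1 to 18.7 and 20.3 FPKM (log2 change 0.74 ± 0.11, adjusted p = 0.0105). Sdc1, the heparan sulfate proteoglycan syndecan-1, rose by 0.41 ± 0.05 (adjusted p = 0.00804).

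Genes for laminin chains and other basement membrane parts also split, with 3 of 17 higher and 4 lower. Lama3 and Lama5, which encode laminin alpha chains, rose by 0.62 ± 0.09 and 0.53 ± 0.10 on the log2 scale. Lama1 was at 1.53 and 1.32 against 0.937 and 0.573 FPKM and Lamc1 at 20.4 and 19.2 against 20.4 and 23.6 FPKM; neither was called. Among the collagens of basement membranes, Col18a1 was at 10.5 and 10.3 FPKM in vehicle and 22.9 and 68.7 in untreated cells (log2 change −1.84 ± 0.50, adjusted p = 0.0415; −1.07 without untreated replicate 2), and Col4a2 at 2.16 and 1.79 against 5.75 and 10.4 FPKM (log2 change −1.56 ± 0.27). The untreated replicate 2 library was the higher for both collagens.

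The cytoskeleton list gave shares near those of all genes. The share that rose was lower among focal adhesion genes and YAP and SRF targets, and higher among junction genes. Of 21 cytoskeleton genes 5 rose (23.8%) and 4 fell (19%), where 18.3% of all genes rose and 20.2% fell; Acta2 and Tagln, described with the fibroblast markers, had the largest rises on the list. Actb, cytoplasmic beta-actin, was at 1078 and 1101 FPKM in vehicle against 634 and 576 in untreated cells, a log2 change of 0.85 ± 0.06 (adjusted p = 0.0049). Tmsb4x, an actin-monomer-binding thymosin, went the other way, from 30.8 and 52.95 to 16.3 and 12.4 FPKM (log2 change −1.45 ± 0.28). Of 22 genes for other integrins and focal adhesions, 2 rose (9.09%) and 5 fell (22.7%). Actn1, an actin crosslinker of adhesion sites, and Zyx, zyxin, were the pair that rose, by 1.21 ± 0.21 and 0.51 ± 0.05. Tns3 and Tln1, which link integrins to actin, fell by 0.66 and 0.43 on the log2 scale. In the fit on all 12 libraries Zyx, Tns3, Tln1 and F11r were not called (adjusted p = 0.0646, 0.133, 0.204 and 0.106). Of 11 targets of YAP and SRF, factors that respond to cell spreading, 1 rose (9.09%) and 3 fell (27.3%). Thbs1, thrombospondin 1, rose by 1.04 ± 0.15 and Amotl2, an angiomotin family gene, fell by 1.14 on the log2 scale. Among 16 cadherins and junction genes, 5 rose (31.2%) and 2 fell (12.5%): Cldn4, a claudin, and Cdh1, E-cadherin, which marks undifferentiated spermatogonia, rose by 1.498 ± 0.21 and 0.96 ± 0.18, while F11r, a junctional adhesion molecule, fell by 0.57 on the log2 scale.

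Genes of the stem and progenitor state were more often higher than lower in vehicle. Of 36 tested, 15 rose (41.7%), 3 fell (8.33%) and 18 were not called, and the median log2 change was 0.39. Over all tested genes 18.3% rose, 20.2% fell and the median was −0.02. In the fit on all 12 libraries 4 genes of the list rose and 1 fell; Sall4, Lhx1, Id4, Id3, Etv5, Ret, Nanos3 and Zbtb16 were not called there, with adjusted p = 0.0564 for Id3 to 0.886 for Ret. Among the transcription factors, Sall4, a zinc finger factor of undifferentiated spermatogonia, was at 55.7 and 55.8 FPKM in vehicle against 31.1 and 29.5 in untreated cells, a log2 change of 0.86 ± 0.05 (adjusted p = 0.00457). Lhx1, a GDNF-responsive factor, was at 61.9 and 60.0 against 39.6 and 33.9 FPKM (0.72 ± 0.08, adjusted p = 0.00682). Id4, whose product marks cells with stem activity, was at 41.8 and 41.2 against 19.5 and 29.8 FPKM (0.76 ± 0.20, adjusted p = 0.0367; 0.46 without untreated replicate 1). In all of them both vehicle libraries were above both untreated ones. Id3, another inhibitor of DNA binding, rose by 0.81 ± 0.12. Pax7, a marker of a small stem cell subset, was at 5.26 and 4.49 against 2.45 and 0.759 FPKM (1.25 ± 0.33, adjusted p = 0.04; 0.76 without untreated replicate 2).

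The 3 genes of the list that fell were Nanos3, Zbtb16 and Itga6. Nanos3, an RNA-binding protein of germ cells, was at 13.1 and 13.8 FPKM in vehicle and 35.6 and 77.2 in untreated cells, a log2 change of −1.89 ± 0.35 (adjusted p = 0.0168; −1.34 without untreated replicate 2). Zbtb16, the PLZF transcription factor needed for stem cell maintenance, was at 69.6 and 66.0 against 89.5 and 104 FPKM (−0.51 ± 0.08, adjusted p = 0.0127). Genes of stem cell maintenance thus lay on both sides of the comparison. Nanos2, a translational regulator of the GDNF response, was at 7.91 and 7.65 against 9.84 and 15.2 FPKM (−0.59 ± 0.20, adjusted p = 0.0699; −0.88 and −0.30 without untreated replicate 1 or 2). Pou5f1, a pluripotency factor also made in spermatogonia, was at 60.4 and 56.4 against 39.9 and 54.1 FPKM (0.32 ± 0.15, adjusted p = 0.144; 0.11 and 0.54 likewise), and neither was called.

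Along the GDNF pathway, the co-receptor gene was not called, and the receptor gene rose slightly with a call that depended on the settings. Several feedback genes of the ERK arm were higher in vehicle. Gfra1, the GDNF co-receptor, was at 83.3 and 73.2 FPKM in vehicle and 116 and 84.2 in untreated cells (log2 change −0.33 ± 0.16, adjusted p = 0.16; −0.11 and −0.56 without untreated replicate 1 or 2) and was not called. Ret, the signalling receptor, was at 123 and 121 against 112 and 107 FPKM, a log2 change of 0.15 ± 0.04 that just passed the threshold (adjusted p = 0.0498). The call of Ret was lost with either other pseudocount and without the trend (adjusted p = 0.119). It was also lost with the replicate block (0.0736) and in the fit on all 12 libraries (0.886). Over 11 receptor genes 4 rose (36.4%) and 2 fell (18.2%), where 18.3% of all genes rose and 20.2% fell. Gfra3 and Igf1r, the IGF1 receptor, rose by 0.50 ± 0.11 and 0.41 ± 0.07, and Il6st and Fgfr1 fell by 0.52 and 0.34 on the log2 scale. Of 14 genes of ERK feedback, 6 rose (42.9%) and 0 fell, with a median of 0.39; the fit on all 12 libraries called 2 of the 14 higher and not Dusp4 (adjusted p = 0.0915). Dusp4, a nuclear phosphatase of ERK, was at 69.1 and 60.4 against 37.3 and 26.1 FPKM (1.02 ± 0.18, adjusted p = 0.0137), and Dusp7, a cytoplasmic one, at 60.9 and 58.8 against 37.2 and 29.2 FPKM (0.84 ± 0.12, adjusted p = 0.00904). Etv5, a GDNF- and FGF-induced factor held in both lists, was at 138 and 132 against 111 and 94.0 FPKM (0.40 ± 0.09, adjusted p = 0.0233). Bcl6b, another GDNF-induced factor, was at 117 and 136 against 122 and 64.3 FPKM, and its groups overlapped. Etv5 (adjusted p = 0.481), Gfra3 and Fgfr1, and Ier3, Jund and Egr1 below, also lost their call in the fit on all 12 libraries. Of 21 immediate early genes 6 rose (28.6%) and 1 fell (4.76%), but their median log2 change of 0.04 was near the −0.02 of all genes. The fit on all 12 libraries called 1 of them higher and 0 lower. Ier3, Jund and Egr1 rose by 0.95 ± 0.13, 0.89 ± 0.16 and 0.29 ± 0.04, and Fos was at 7.54 and 7.47 against 6.80 and 7.71 FPKM.

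**Figure D2:**
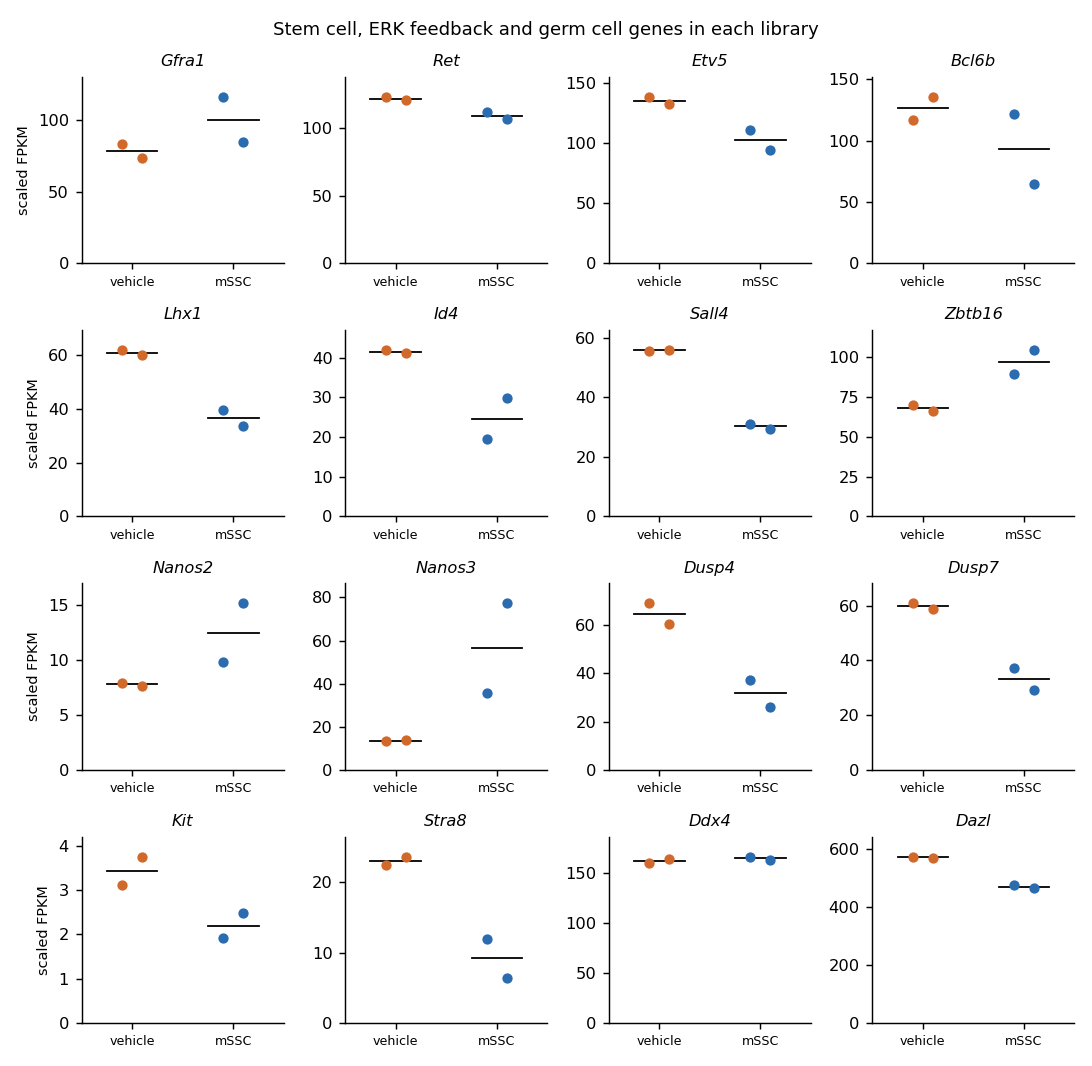
Scaled FPKM in each library (points) and the mean of the 2 libraries (bar) for 16 genes, with vehicle cells on the left and untreated mSSC on the right of each panel; axes start at 0. Sall4, Lhx1, Dusp4 and Dusp7 are higher in both vehicle libraries, Nanos3 and Zbtb16 lower, and Ddx4 overlaps.

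Markers of differentiation were more often higher than lower in vehicle, and Stra8 was low in both groups beside its level in the retinoic acid libraries. Stra8, a retinoic acid target gene, was at 22.5 and 23.7 FPKM in vehicle and 11.9 and 6.43 in untreated cells (log2 change 1.30 ± 0.26, adjusted p = 0.0204). The RA libraries held it at 524 and 570 FPKM and idSG at 1385 and 1180 FPKM. Kit, the receptor of differentiating spermatogonia, was at 3.13 and 3.76 against 1.92 and 2.48 FPKM (0.48 ± 0.15, adjusted p = 0.0557) and was not called. Over the list of differentiating spermatogonia 6 of 14 rose (42.9%) and 2 fell (14.3%). Over the retinoic acid response 5 of 14 rose (35.7%) and 1 fell (7.14%), where 18.3% of all genes rose and 20.2% fell. Stra8 is in both lists. Each list had 3 genes higher and 0 lower in the fit on all 12 libraries. Rhox13, a homeobox gene of differentiating spermatogonia, was at 36.7 and 36.0 against 19.8 and 20.0 FPKM (0.84 ± 0.05; adjusted p = 0.0502 in the fit on all 12 libraries), and Dhrs3, a retinaldehyde reductase, at 9.26 and 9.63 against 3.39 and 3.38 FPKM (1.25 ± 0.08). Sohlh1, a factor of early differentiation, was at 56.7 and 67.5 against 60.6 and 82.9 FPKM and was not called.

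Genes of the synaptonemal complex and meiotic cohesin were lower or not called. Of 12 tested, 6 fell (50%) and 0 rose, with a median of −0.20. The fit on all 12 libraries called 1 of the 12 lower and not Sycp3 (adjusted p = 0.133). Syce2 and Sycp3, components of the central and lateral elements, fell from 123 and 114 to 79.7 and 79.6 FPKM and from 87.8 and 90.6 to 59.0 and 68.0 FPKM. Of 18 recombination genes 2 rose and 5 fell. Mei4, needed for meiotic double-strand breaks, rose by 0.85 ± 0.15 and Tex15 fell by 0.47 on the log2 scale. Later germ cell genes did not follow: of 12 pachytene and spermatid genes at 1 FPKM or more, 5 rose and 2 fell. Ldhc, the testis lactate dehydrogenase, was at 6.85 and 7.99 against 1.52 and 1.53 FPKM (1.74 ± 0.11, adjusted p = 0.00457), and Hspa2, a chaperone of meiotic cells, rose by 1.05 ± 0.08, while Odf2, of centrosomes and the sperm tail, fell by 0.93 on the log2 scale.

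Germ cell identity genes, which mark the labelled cell type, were abundant in both groups. With all 12 libraries scaled together, as for all marker sums here, the summed level of 17 identity genes was 2449 and 2440 FPKM in vehicle and 2476 and 2360 in untreated cells; 4 rose, 5 fell and the median was 0.01. Ddx4, the germ cell RNA helicase, was at 160 and 164 against 166 and 163 FPKM. Dazl, an RNA-binding protein of germ cells, was at 573 and 570 against 475 and 464 FPKM (0.28 ± 0.04, adjusted p = 0.0089). Tex19.1, which restrains transposons, was at 133 and 130 against 227 and 217 FPKM (−0.75 ± 0.05, adjusted p = 0.00457). The 21 piRNA and germ granule genes split into 6 higher and 6 lower. Piwil4, which carries piRNAs in fetal and neonatal germ cells, was at 13.9 and 15.7 against 8.74 and 4.30 FPKM (1.13 ± 0.29; 0.69 without untreated replicate 2). Dnd1, an RNA-binding protein required for germ cell survival, rose by 0.51 ± 0.05, and the helicase genes Tdrd9 and Ddx25 fell by 0.53 and 0.47 on the log2 scale. In the fit on all 12 libraries Dazl (adjusted p = 0.199) and Dnd1 (0.135) were not called. Dppa3, a gene of early germ cells, was at 0.653 and 0.492 against 2.33 and 3.40 FPKM.

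Interferon response genes were lower in vehicle by their median, and the size of that median changed with untreated replicate 2. Of 16 tested, 4 fell (25%, near the 20.2% of all genes), 1 rose and 11 were not called. The median log2 change was −0.82 with all libraries, −0.42 without untreated replicate 2 and −1.23 without replicate 1. The proximal promoters of Isg15, which is on the list, and of Gbp2, an interferon-induced gene that is not, are printed here because interferon-activated factors bind tandem GAAA repeats in such genes. They are RefSeq sequences of GRCm38.p6, from 250 bases before to 50 after the start of the gene, 5′ to 3′ on the strand of the gene, and capitals mark every base in a match to GAAANNGAAA on either strand, overlapping matches included. Gbp2 lies at chr3:142620413-142620712 on the plus strand and Isg15 at chr4:156200769-156201068 on the minus strand; the expression files use mm9, so these positions apply to the sequences only.
Gbp2: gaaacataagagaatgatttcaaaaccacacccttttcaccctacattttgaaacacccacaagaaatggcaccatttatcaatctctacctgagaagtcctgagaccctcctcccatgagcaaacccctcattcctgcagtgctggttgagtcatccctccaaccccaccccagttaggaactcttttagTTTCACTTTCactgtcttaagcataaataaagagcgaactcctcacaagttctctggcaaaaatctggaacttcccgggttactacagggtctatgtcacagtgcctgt
Isg15: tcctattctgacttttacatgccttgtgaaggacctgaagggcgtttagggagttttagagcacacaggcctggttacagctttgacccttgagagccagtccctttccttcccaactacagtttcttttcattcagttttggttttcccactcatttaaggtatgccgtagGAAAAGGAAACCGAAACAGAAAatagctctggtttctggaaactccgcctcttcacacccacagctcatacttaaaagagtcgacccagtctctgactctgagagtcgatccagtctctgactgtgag
The Gbp2 sequence held 1 match, which reads on the opposite strand, and Isg15 held 3 in a row, the middle one overlapping the other two. Matches occurred in 3.44% of all 32851 promoter sequences, in 289 (3.33%) of the 8676 tested genes with a sequence and in 6 of 14 tested interferon response genes with one. Of the 3 genes on the list that fell and had a sequence, Isg15 held the motif and Oasl2 and Psmb9 did not.

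Gbp2, an interferon-induced guanylate-binding GTPase, was at 1.35 and 1.43 FPKM in vehicle and 9.48 and 42.8 in untreated cells (log2 change −3.16 ± 0.66, adjusted p = 0.022; −2.13 without untreated replicate 2). Isg15, a ubiquitin-like modifier, was at 0.345 and 0.482 against 3.55 and 8.79 FPKM (−2.24 ± 0.37, adjusted p = 0.0127), and Oasl2, of the oligoadenylate synthetase family, at 1.85 and 2.21 against 7.09 and 17.5 FPKM (−2.01 ± 0.39, adjusted p = 0.0185; −1.42 without that library). Both untreated libraries were above both vehicle libraries, and replicate 2 was the higher each time. H2-K1, a class I histocompatibility heavy chain, was the gene of the list that rose, from 11.8 and 9.48 to 17.8 and 19.04 FPKM (adjusted p = 0.258 in the fit on all 12 libraries). Irf1, an interferon-induced transcription factor, was at 26.9 and 32.0 against 46.6 and 127 FPKM and was not called (adjusted p = 0.0738). Irf1 and the genes of antigen processing and immunity that follow, down to Irgm1, were chosen after their values were seen. Their direction therefore adds no support to that of the list. Psme1 and Psme2, the subunits of the proteasome activator PA28, were at 45.7 and 48.3 against 120 and 209 FPKM and at 62.7 and 61.9 against 193 and 405 FPKM. Tapbp, tapasin, and Erap1, an aminopeptidase that trims peptides, changed by −1.54 ± 0.37 and −1.82 ± 0.30, and Irgm1, an immunity-related GTPase, by −1.72 ± 0.48; without untreated replicate 2 they stood at −0.98, −1.37 and −0.98. Of 11 NF-kB and chemokine genes 2 fell (18.2%, again near the share of all genes) and 0 rose, among them Icam1, an adhesion molecule, from 19.2 and 22.8 to 13.7 and 14.6 FPKM (adjusted p = 0.295 in the fit on all 12 libraries).

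Fibroblast and matrix markers moved in both directions, and their summed level set untreated replicate 2 apart. Of 24 tested peritubular and fibroblast markers 9 fell (37.5%), 4 rose (16.7%) and 11 were not called. The summed level of all 25 markers in the files was 224 and 187 FPKM in vehicle and 278 and 595 in untreated cells, with 0 of the 25 listed at 0 in any of the 4 libraries. The median log2 change was −0.97 with all libraries and −0.18 without untreated replicate 2. Col6a1 and Col6a3, collagen VI chains, were at 5.57 and 4.78 against 16.9 and 43.6 FPKM and at 3.61 and 2.63 against 11.1 and 29.7 FPKM; without untreated replicate 2 their log2 changes went from −2.20 and −2.24 to −1.54 and −1.56. Vim, the intermediate filament vimentin, was at 26.01 and 22.2 against 61.8 and 72.6 FPKM (−1.44 ± 0.11). Col1a1, the main fibrillar collagen, did not move with them, at 31.0 and 27.9 against 25.2 and 37.5 FPKM. The smooth muscle genes Acta2 and Tagln went the other way, at 8.29 and 6.60 against 1.16 and 0.250 FPKM and at 9.16 and 5.87 against 2.84 and 1.14 FPKM. In bulk RNA, fewer cells of a type and less RNA per cell cannot be told apart, and the part that other cells had in the changes of matrix and interferon genes was not tested.

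Markers of other somatic cells were low. The summed level of 13 macrophage markers was 12.2 and 12.1 FPKM in vehicle and 19.8 and 35.6 in untreated cells, with 5 markers listed at 0 in each vehicle library (Emr1, C1qa, C1qb and C1qc in both) and 1 and 0 in the untreated ones. Of these markers 3 were tested, and Lyz2 and Cd68, a lysosomal protein of macrophages, fell. The summed level of 15 Sertoli cell markers was 7.89 and 7.90 against 8.503 and 11.9 FPKM, and 0 of 5 tested were called; Fshr and Cst9 were listed at 0 in all 4 libraries. Wt1, a factor of Sertoli cells, was at 0.846 and 0.710 against 1.64 and 0.817 FPKM and Sox9 at 1.70 and 1.71 against 0.898 and 1.31 FPKM. The 8 Leydig cell markers summed to 1.98 and 1.72 against 2.71 and 2.50 FPKM with Lhcgr and Hsd17b3 at 0 in all 4 libraries, and Star, the cholesterol carrier of steroid synthesis, the only one tested, was not called. The 11 endothelial markers summed to 18.4 and 17.1 against 17.2 and 15.7 FPKM; of 5 tested, 2 rose and 1 fell, with Pecam1 higher by 0.60 ± 0.16 and Flt1 lower by 0.61 ± 0.11 on the log2 scale (adjusted p = 0.143 in the fit on all 12 libraries). Each of these sums was well under that of the germ cell markers.

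Genes of the Hoxb cluster were lower in vehicle. Of 39 Hox symbols 28 were under the mean of 1 FPKM, so most Hox genes were not tested. Of 11 tested Hox genes 8 fell (72.7%) and 0 rose, with a median of −0.68, and all 8 belong to the Hoxb cluster. Hoxb7 was at 9.47 and 8.75 FPKM in vehicle against 22.1 and 26.4 in untreated cells (−1.32 ± 0.11, adjusted p = 0.00526), and Hoxb4 at 7.59 and 7.05 against 13.4 and 19.8 FPKM. In the fit on all 12 libraries 3 Hox genes were called lower, and Hoxb7 was not called (adjusted p = 0.0786). Of 19 imprinted genes 5 rose (26.3%) and 3 fell (15.8%), shares not far from the 18.3% and 20.2% of all genes. Their median log2 change was higher, at 0.44 against −0.02 over all genes. It was 0.13 without untreated replicate 1 and 0.35 without replicate 2. The paternally expressed Mest was at 46.5 and 40.0 against 13.4 and 11.1 FPKM (1.74 ± 0.12, adjusted p = 0.00482) and Peg10 at 12.8 and 14.0 against 4.97 and 5.14 FPKM, while Dlk1, also paternally expressed, was at 2.07 and 1.77 against 4.06 and 5.68 FPKM. The members that rose and fell therefore included genes of the same parental origin. Uhrf1, which recruits the maintenance DNA methyltransferase, was at 272 and 278 against 195 and 167 FPKM; over 10 DNA methylation genes 2 rose and 2 fell. Sfrp1 and Sfrp2, secreted Wnt antagonists, rose by 0.90 ± 0.11 and 0.66 ± 0.06 (for Sfrp2, adjusted p = 0.248 in the fit on all 12 libraries), within a Wnt list of 4 higher and 1 lower of 13.

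Glucose and lipid genes were more often higher in vehicle. Of 22 glycolysis genes 10 rose (45.5%) and 1 fell. Slc2a3, a glucose transporter, was at 20.1 and 23.0 against 7.13 and 6.73 FPKM (1.51 ± 0.09, adjusted p = 0.00457), and Pfkp, a phosphofructokinase, rose by 1.31 ± 0.19. Pdk1, the kinase that restrains entry of pyruvate into mitochondria, was the one that fell, from 47.2 and 56.9 to 24.5 and 22.8 FPKM. Of 15 fatty acid synthesis genes 6 rose and 1 fell, and of 23 cholesterol synthesis genes 5 rose and 0 fell. The desaturases Scd1 and Scd2 were at 20.5 and 17.8 against 8.22 and 6.95 FPKM and at 98.6 and 92.4 against 38.0 and 43.3 FPKM, and Insig1, a sterol-regulated brake on SREBP, at 238 and 244 against 144 and 148 FPKM. Some lists of stress genes showed the same lean. Higher were 6 of 18 genes of the integrated stress response, 6 of 15 NRF2 targets and 3 of 14 hypoxia genes, with 0 lower in each list. The list of endoplasmic reticulum stress and folding split instead, with 7 of 20 higher (35%), 5 lower (25%) and a median of 0.01. The shares that rose were 21.7% for cholesterol synthesis and 21.4% for hypoxia, close to the 18.3% of all genes. Atf4, the factor at the centre of the integrated stress response, was at 103 and 105 against 72.8 and 76.4 FPKM. Txn1, thioredoxin, and Gsr, glutathione reductase, rose by 0.70 ± 0.08 and 0.50 ± 0.05, and the heat shock gene Hspa1b by 1.16 ± 0.08, in a heat shock list with 2 higher and 1 lower of 16. In the fit on all 12 libraries the integrated stress response had 1 gene higher and 1 lower and the NRF2 list 1 higher, and Atf4, Gsr, Hspa1b and Insig1 were not called (adjusted p = 0.211, 0.0966, 0.555 and 0.112).

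Proteasome and cytosolic ribosomal protein genes were more often lower. Of 32 proteasome genes 21 fell (65.6%) and 0 rose, with a median of −0.24, and Psmc3, a subunit of the regulatory particle, was at 136 and 134 against 210 and 193 FPKM. Of 79 cytosolic ribosomal protein genes 47 fell (59.5%) and 8 rose, with a median of −0.28. That median was −0.093 after quantile normalization, with 32 lower and 14 higher, and the fit on all 12 libraries called 8 lower and 3 higher, against 14 lower and 0 higher for the proteasome. Rps18 was at 1542 and 1631 against 2570 and 2841 FPKM, while Rpl39 went the other way, at 956 and 907 against 575 and 567 FPKM. Many of these genes have processed pseudogene copies, so their levels are uncertain. Of 76 mitochondrial ribosomal protein genes 25 fell (32.9%) and 11 rose (14.5%). Of 76 oxidative phosphorylation genes 21 fell (27.6%) and 14 rose (18.4%), with a median of 0.01, not far from all genes. After quantile normalization 15 of them fell and 24 rose. Uqcrh, of complex III, was at 232 and 233 against 384 and 394 FPKM, while Ndufs5 rose, at 116 and 85.5 against 57.3 and 45.7 FPKM. The median log2 change was 0.11 over 71 genes up to 500 nucleotides long and −0.02 over 457 genes of 500 to 1000. It was 0.005 for 1000 to 2000, −0.02 for 2000 to 4000 and −0.02 over 4080 genes longer than 4000.

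DNA replication genes leaned lower, with exceptions, while the calls among genes of G2 and mitosis changed direction with the scaling. Of 31 DNA replication genes 12 fell (38.7%) and 3 rose (9.68%), where 20.2% of all genes fell and 18.3% rose. The fit on all 12 libraries called 7 of them lower and 1 higher. Of 26 genes of G2 and mitosis 6 fell (23.1%, close to the 20.2% of all genes) and 2 rose, with a median of −0.05. After quantile normalization 5 of the 26 rose and 3 fell. Mki67, the proliferation antigen, was at 34.9 and 32.9 against 61.1 and 48.6 FPKM (−0.67 ± 0.12), and Cenpf, of the kinetochore, at 31.0 and 30.2 against 49.1 and 46.5 FPKM. Plk1, a mitotic kinase, rose from 39.0 and 30.4 to 50.5 and 49.1 FPKM, so the mitotic genes did not move as one. In replication, Gins3, of the replicative helicase, fell by 0.51 on the log2 scale, and Mcm2, of the same helicase, and Prim1, the primase subunit, rose by 0.29 ± 0.05 and 0.47 ± 0.09. Plk1 and Mcm2 were not called in the fit on all 12 libraries (adjusted p = 0.102 for both). Of 20 p53 targets 2 rose and 1 fell.

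**Figure D3:**
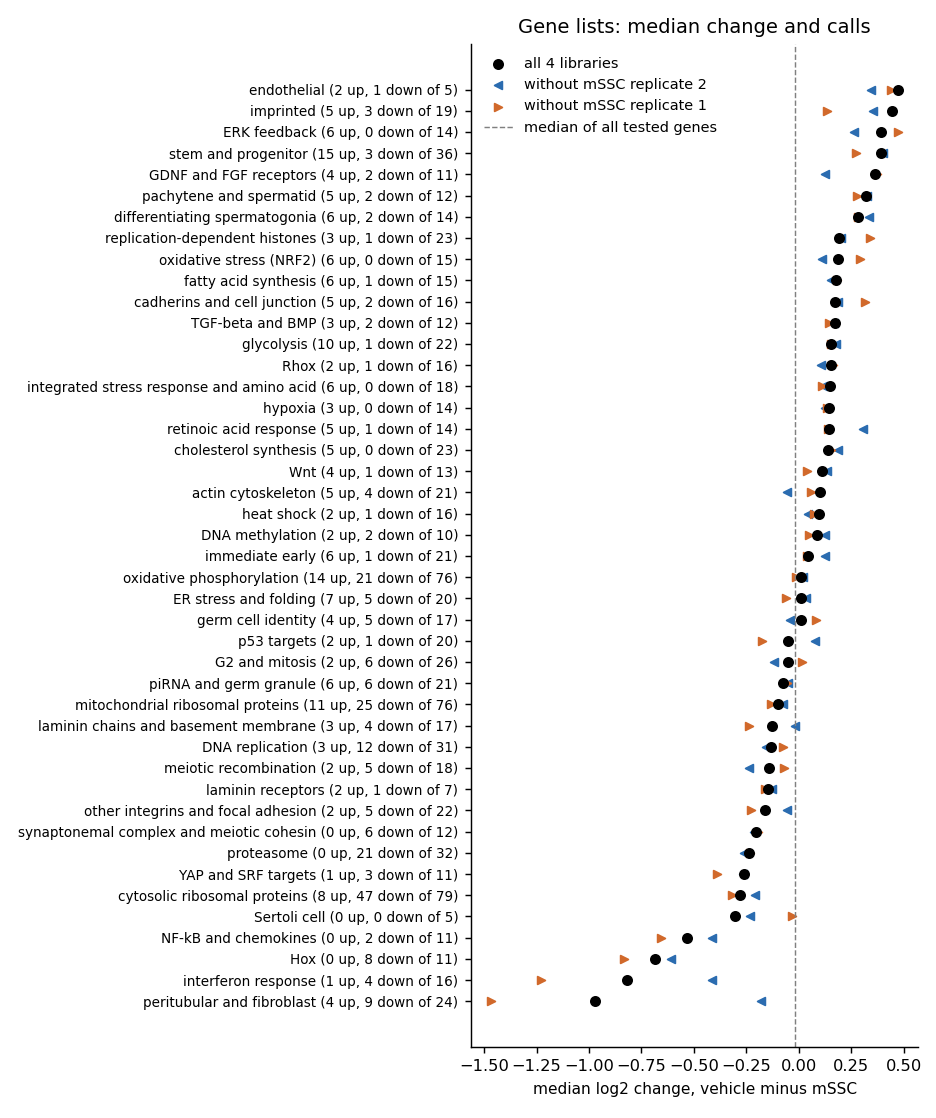
Median log2 change, vehicle minus untreated mSSC, over the tested members of each list with 5 or more of them, from all 4 libraries (circles) and without untreated replicate 2 or 1 (triangles); the dashed line is the median of all tested genes and the labels give the members called up and down. The peritubular and fibroblast median goes from −0.97 to −0.18 without untreated replicate 2, while the stem and progenitor median stays between 0.27 and 0.40.

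The remaining libraries of the 2 experiments share no sample with the comparison. They show which genes were split the same way between the RA and RA with CHX libraries and the idSG and iSC libraries. Over all tested genes, 20.4% were higher in all 4 RA and RA with CHX libraries than in all 4 idSG and iSC libraries, and 18.8% were lower in all 4. Among the 2217 genes that rose in vehicle, 864 (38.97%) were also above in those libraries and 190 (8.57%) below. Among the 2450 that fell, 673 (27.47%) were also below and 169 (6.898%) above. These libraries differ in treatment and cell state as well as in experiment, and the sources of a shared split cannot be told apart. Slc38a4 was at 33.1 to 47.4 FPKM in RA and RA with CHX libraries and at 0.998 to 4.92 FPKM in idSG and iSC. Gbp2 was at 0.915 to 1.32 against 3.71 to 28.6 FPKM, and Psme2 at 51.9 to 54.4 against 106 to 250 FPKM. For these genes the 4 libraries of the treatment experiment lay on the same side as the vehicle cells. Spp1 did not separate that way: RA with CHX held it at 221 and 218 FPKM, above both vehicle libraries and both RA libraries.

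**Figure D4:**
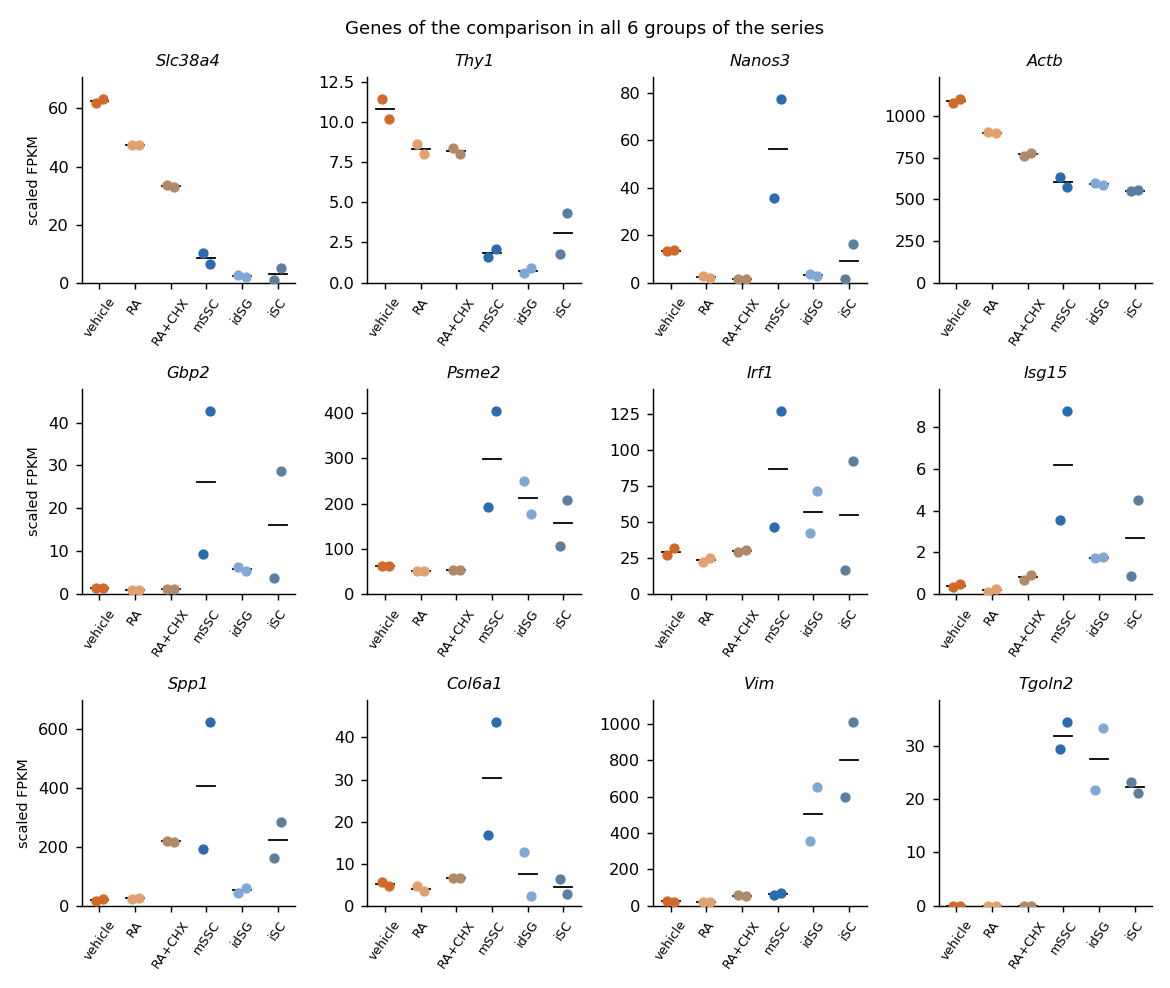
Scaled FPKM (all axes start at 0) of 12 genes in each of the 2 libraries (points, bar at the mean) of the 6 groups; the 3 groups on the left are the treatment experiment and the 3 on the right the induction experiment. Tgoln2 is listed at 0 in all treatment libraries, and Gbp2, Psme2 and Isg15 spread widely between the untreated replicates.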

How the data were processed

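Reads were mapped with TopHat2 2.0.6 to mm9 and quantified with Cuffdiff, per the submitters' processing notes; for the Cuffdiff version, annotation and strandedness, no value was given in the sources used here. The authors deposited 1 table of FPKM values per library, without read counts, so depth is unknown. Vehicle replicate 1 repeats 25 lines, which were counted once. Small-RNA symbols (Mir, Snor, Scarna, Rnu) were left out, FPKM were scaled by median ratios over the 4 libraries (over all 12 where other libraries are shown), and genes with a mean of 1 or more were kept. log2(FPKM + 1) was tested with limma 3.58.1 in R 4.3.3 (group only, trended empirical Bayes, 2 residual degrees of freedom, Benjamini-Hochberg adjustment, threshold 0.05), after the procedure was tested on simulated data; a fold on this scale understates the change of low genes. Named were the 8 highest and 8 lowest called genes with a mean of 5 or more and no overlap, up to 2 called members each way of each list described, and key genes of the cell type. A gene that this rule selects is not reported here. The genes and lists were chosen with earlier results of these data known. Alternatives covered pseudocount, filter, scaling, copies, model and left-out libraries. Promoters and gene lengths come from GRCm38 annotation, used for sequence and length only. Figures were drawn with matplotlib.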

Additional observations from a re-analysis of the deposited data

Results flagged for a closer look

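Small-RNA symbols, left out of the comparison, held a mean of 8.15% of the summed FPKM in vehicle and 1.01% in untreated cells, a signal in values that the comparison does not use. Mir703 was highest among them in both vehicle libraries, at 10820 and 16850 FPKM, and Snora7a in the untreated ones, at 3319 and 2439 FPKM. Across the other libraries the share was 5.06% to 8.30% in the RA and RA with CHX libraries and 0.345% to 1.55% in idSG and iSC. FPKM of genes shorter than a fragment is not a measure of the mature small RNA.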

How the results depend on the processing

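The main fit called 4667 genes. Leaving out 1 library gave 5 to 7868 calls, 1 to 3786 higher, 4 to 4082 lower and 5 to 2556 split alike in the other libraries, since the spread then comes from the remaining pair alone and the lone library is assumed to vary like the other group. A least absolute log2 change of 1 left 354 genes (231 higher, 123 lower, 190 split alike). A fit on all 12 libraries called 1556 genes lower. Keeping all genes in the test (18857) gave 3685 calls and ended the call of 25 named genes, among them Gbp2, Nanos3, Col6a1, Timp2, Stra8, Etv5 and Id4 (adjusted p = 0.0502 for Jund to 0.115 for Irgm1). Without the trend 7 lost it (Col18a1, Id4, Irgm1, Pax7, Piwil4, Ret and Tapbp), with quantile normalization Pax7 and Pecam1, with pseudocounts of 0.1 Pax7 and Ret; Ret also with a pseudocount of 0.5, small RNAs kept, repeated lines summed or the replicate block. Without scaling 59.3% of calls were higher, against 47.5% in the main fit, and the median of all genes was 0.04 instead of −0.02. Among uncalled genes the sign turned for Col1a1 (log2 change 0.000734 without scaling; −0.34 to 0.22 when a library was left out), Ddx4 (0.037 without scaling, 0.048 with quantile normalization), Fos (−0.034 to 0.12 when a library was left out) and Sohlh1 (−0.42 to 0.031 likewise); the cause was not tested. No called gene in the text turned.

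Replicate numbers did not pair the libraries (correlation of deviations −0.069); the fit with a replicate block called 4138 genes, of which 3895 were shared. FPKM without counts and 2 libraries per group limit precision, and no interval for counting error can be given.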
